A study of Mus musculus with 24 samples.

Results

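The mouse lacrimal gland (LG) on the last days before birth, at embryonic day E19.5, was compared with the adult LG by RNA sequencing. The aim was to see which genes of the working gland were still without transcripts, or nearly so, in the embryo and which already stood at the adult level. The comparison used 6 of the 24 samples of the series, with 3 libraries labelled E19.5 and 3 labelled adult, all from LG tissue of C57BL/6 mice. No age beyond adult, no sex and no treatment is given for them. No label says whether a library came from one animal or from several, so that the p-values measure only the spread between these libraries. A further 3 libraries of E17.5 LG were used to see whether a gene had already moved between E17.5 and E19.5. The remaining samples, stem cell spheres grown from adult LG, were not used. Of 63862 genes listed, the 18393 whose mean in these libraries reached 0.5 FPKM were compared, where FPKM stands for fragments counted relative to exon length and sequencing depth, on the scale the authors deposited.

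The adult LG is an exocrine gland whose acinar cells make the proteins and much of the water of tears. Its ducts modify this fluid and carry it to the eye, and myoepithelial cells press it out when nerves release acetylcholine, noradrenaline or peptides. Plasma cells lodge between the acini after birth and deliver antibodies, which the epithelium carries into tears. In the mouse, the gland grows out of the conjunctival epithelium as a bud that branches through a mesenchyme before birth, while the eyes open and tear flow begins only afterwards.

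Adult replicate 3 stood apart from the other adult libraries. Across genes, log2 values correlated at 0.946 between adult replicates 1 and 2, but at 0.850 and 0.879 between these and replicate 3. The summed level of 10 milk protein genes was 25639 FPKM in adult replicate 3, against 2.36 and 4.15 in replicates 1 and 2 and at most 8.42 at E19.5. Xist, which is transcribed from the inactive X chromosome, was at 74.4 FPKM in adult replicate 3 and at 0.116 and 0.0704 FPKM in the other adult libraries, while 4 Y-linked genes were at 0 in replicate 3 and above 0 in the others, so that by these genes sex differed within the adult group. The E19.5 libraries held both, with Xist at 48.2, 35.3 and 51.8 FPKM and all 4 Y-linked genes above 0. By these genes, the E19.5 libraries held tissue of both sexes and thus of several embryos. In replicates 1 and 2, 60.4% and 59.6% of the reads came from the 10 genes with most reads, against 31.3% in replicate 3 and at most 8.07% at E19.5. Results were therefore also computed without adult replicate 3, and the part of these differences in a result was not tested.

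The deposited scale also had to be kept in view. Whole reads could be recovered from the values and numbered 6434734, 8139852 and 8414324 in the adult libraries and 8784047, 9146841 and 8795371 at E19.5. The deposited values were not divided by these totals, since the reads were 2.67, 2.57 and 1.10 times the scale used for adult replicates 1, 2 and 3, and 1.00, 1.02 and 1.12 times that used at E19.5. Dividing by the total reads instead moved the median log2 difference of all genes from 0.02 to 0.59, in favour of E19.5. Levels relative to the adult therefore depend on the scale. Several widely used genes were listed at or near 0 in every library, among them Gapdh, so a low value in both stages is not read here as a lack of transcript.

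Markers showed an epithelial gland at both stages, with an abundant acinar marker in the adult only. Car6, a carbonic anhydrase secreted by acinar cells, was the only abundant gene of 6 acinar markers, and their summed level was 0.173 to 0.262 FPKM at E19.5 against 5467 to 15950 FPKM in the adult. Aqp5, the apical water channel of acinar cells, was listed at 0.497, 0.568 and 0.472 FPKM in the adult and at 0, 0.0667 and 0 FPKM at E19.5, too low in both to serve as a marker here. Krt5, Krt14, Krt19, Trp63 and Nes, markers of basal, ductal or progenitor cells, were likewise at most 0.781 FPKM in any library of both stages, and Myh11 was at 0. The other myoepithelial markers went different ways. Acta2, the smooth muscle actin of myoepithelial cells and of vessels, was at 1007, 1039.5 and 1093 FPKM at E19.5 and 105, 109.6 and 524 FPKM in the adult (log2 difference 2.51, adjusted p = 0.018, up to 0.065 without 1 library). Cnn1, the calponin of smooth muscle and myoepithelial cells, was at 3.89, 3.70 and 4.33 and 15.0, 14.6 and 84.7 FPKM (log2 difference -2.48, adjusted p = 0.023, up to 0.072 without 1 library and 0.17 scaled to own reads), and Oxtr, the oxytocin receptor, did not pass (log2 difference -0.29, SE 0.46). Summed duct markers lay at 762 to 953 FPKM at E19.5 and at 759 to 1090 FPKM in the adult, so that the stages overlapped. Of these 7 markers, 3 were at 0 in all 6 libraries. Nearly all of the sum came from Krt18, a keratin of simple epithelia, and Cdh1, the epithelial E-cadherin, so it does not measure duct content. Mesenchymal markers summed to 4263 to 5122 FPKM at E19.5 and 143 to 277 FPKM in the adult, markers of proliferating cells to 782 to 1031 FPKM against 88.0 to 143 FPKM, and leukocyte markers to 35.9 to 39.5 FPKM against 55.1 to 97.9 FPKM. Of the 4 leukocyte markers tested, 2 were lower at E19.5, and 0 were lower scaled to own reads. By the mesenchymal and proliferation markers, the makeup of the tissue therefore differed between the stages. In whole glands, fewer cells of a type and less RNA per cell cannot be told apart.

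Differences were tested gene by gene with limma on log2(FPKM + 1), with an adjusted p under 0.05 as the threshold. Of all 18393 genes, 45.7% passed, with 25.1% higher and 20.6% lower at E19.5, and scaled to own reads 49.3% of 16606 passed, with 40.1% higher and 9.27% lower. When adult replicate 3 was left out, 59.7% of 18156 passed, with 31.9% higher and 27.8% lower. Among the calls, 54.9% were higher at E19.5 on the deposited scale and 81.2% after scaling to own reads. The 3 values of a stage did not overlap those of the other in 59% of the genes.

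To ask which adult genes were absent and which were at the adult level, the 6070 genes with an adult mean of at least 5 FPKM were sorted into classes. A gene was called absent when it was lower at E19.5 and under 0.5 FPKM in every E19.5 library, and at the adult level when the 95% confidence interval of the log2 difference lay within 1 of zero, that is, within a 2-fold range. Absent genes numbered 430 (7.08%), genes below the adult level but present 1472 (24.3%), genes at the adult level 1340 (22.1%), genes above it 1089 (17.9%), and 1739 (28.6%) were too variable to be placed. The stages did not overlap in any of the 430 absent genes, in any of the 1472 below the adult level and in 1088 of the 1089 above it. For single genes of these classes, a lack of overlap is therefore a description and no added support. Just inside and just outside the limit of absence, the highest E19.5 value of a gene was 0.4998 and 0.506 FPKM. Without adult replicate 3, 401 of the 430 absent genes and 1287 of the 1340 genes at the adult level kept their class. After scaling to own reads, 272 absent genes remained absent while 147 fell under the adult limit of 5 FPKM, and of the 1340 genes at the adult level 563 were above it, 410 fell under the adult limit, 359 could not be placed and 8 remained at it.

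**Figure D1:**
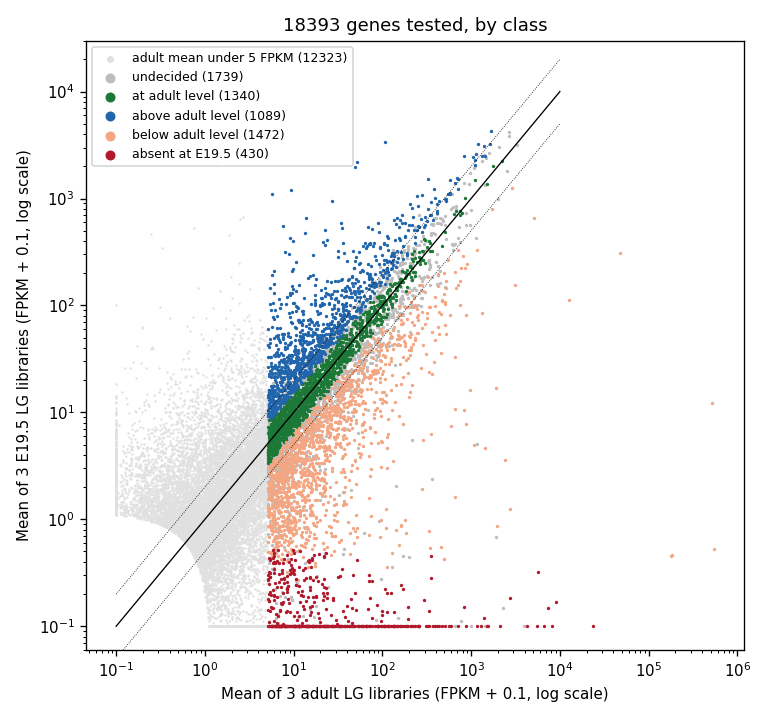
Mean FPKM plus 0.1 in adult LG (x axis) against that in E19.5 LG (y axis), both on log axes, for the genes compared, coloured by class, with a solid line at equal levels and dotted lines at a 2-fold difference. Genes called absent lie along the bottom of the plot at any adult level, and the 1340 genes at the adult level lie along the diagonal.

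Of the 430 absent genes, 75 were protein-coding, 85 were immunoglobulin segments and 210 were assembled loci without a gene name. Reads could be counted only for genes with a known exon length, which leaves out the assembled loci. Of the genes so counted, 133 had no read at all at E19.5. Over all 430 absent genes, the median of the E19.5 means was 0 FPKM, and 396 were also under 0.5 FPKM in every E17.5 library. Secreted proteins and a P450 were among the most abundant protein-coding ones. Gm5938, without a read at E19.5, was at 36207, 24491 and 10602 FPKM in the adult. On the deposited scale it was thus at least 229201-fold lower at E19.5. The bound takes 3 reads over the 3 embryonic libraries together as the least that could be seen. This bound and the fold values below hold for the deposited scale only. Scaling to own reads divides adult replicates 1 and 2 by 2.67 and 2.57, and the bounds were not recomputed with it. In 9530002B09Rik, Gm12888 and Gm14743, which are not well described, 1, 0 and 0 reads faced adult means of 7361 FPKM for 9530002B09Rik, 6655 for Gm12888 and 4311 for Gm14743. Cyp2a5, a cytochrome P450 that oxidizes coumarin and nicotine, had 1 read at E19.5 and was at 927, 1627 and 1682 FPKM in the adult. Lipo1, a lipase-like gene with near-identical relatives, had no read and was at 2033, 1577 and 297 FPKM in the adult. Aqp8, a water channel chosen after its values were seen, was at 0, 0.0704 and 0.161 FPKM at E19.5 and 466, 329.8 and 91.5 FPKM in the adult, with all adult libraries far above all E19.5 libraries. The gene at the top of the adult gland, Mucl2, was not called absent, because 1 of 3 E19.5 libraries exceeded 0.5 FPKM.

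Promoters were looked at next, as a description without a test. RefSeq gave a sequence of 250 bases before the start for 60 of the 75 absent protein-coding genes and for 970 genes at the adult level. CG dinucleotides numbered 2.5 at the median in the absent genes, 17 in the genes at the adult level, 14 in the genes below it and 10 in all 16474 promoters. At most 5 CG dinucleotides were found in 80.0% of absent genes, 7.11% of genes at the adult level and 35.9% of all promoters. The letters TATAAA, searched on both strands, were found in 33.3%, 4.12% and 11.9% of these groups. Below are the 100 bases before the start of 4 absent genes, a tear protein (Pip), the antibody carrier (Pigr), a P450 (Cyp2a5) and a secretoglobin (Scgb2b7), and of 3 respiratory chain genes at the adult level, 5′ to 3′ on the gene's strand (GRCm38.p6), with CG dinucleotides in capitals.
Pip: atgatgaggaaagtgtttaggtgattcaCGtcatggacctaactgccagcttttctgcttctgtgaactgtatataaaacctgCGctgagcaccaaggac
Pigr: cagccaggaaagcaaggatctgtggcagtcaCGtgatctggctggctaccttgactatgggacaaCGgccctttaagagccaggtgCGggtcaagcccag
Cyp2a5: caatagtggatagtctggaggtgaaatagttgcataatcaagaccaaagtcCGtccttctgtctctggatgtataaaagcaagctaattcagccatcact
Scgb2b7: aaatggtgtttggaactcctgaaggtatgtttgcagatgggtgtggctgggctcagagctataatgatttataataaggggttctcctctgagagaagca
Cox6a1: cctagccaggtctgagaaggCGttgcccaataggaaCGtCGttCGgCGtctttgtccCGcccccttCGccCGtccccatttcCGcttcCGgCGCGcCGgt
Cox8a: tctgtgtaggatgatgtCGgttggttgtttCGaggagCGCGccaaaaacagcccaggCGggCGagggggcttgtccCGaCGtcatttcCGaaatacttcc
Atp5b: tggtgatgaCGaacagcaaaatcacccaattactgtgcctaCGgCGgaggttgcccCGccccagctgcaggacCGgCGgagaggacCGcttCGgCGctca
These lie at chr6:41847449-41847548 (Pip, plus strand), chr1:130826584-130826683 (Pigr, plus), chr7:26835239-26835338 (Cyp2a5, plus), chr7:31705755-31705854 (Scgb2b7, minus), chr5:115348959-115349058 (Cox6a1, minus), chr19:7217617-7217716 (Cox8a, minus) and chr10:128083207-128083306 (Atp5b, plus). The 4 absent genes held 2, 3, 1 and 0 CG dinucleotides in this stretch and the 3 genes at the adult level 13, 9 and 9. TATAAA began 28 bases before the start in Pip and 29 bases before it in Cyp2a5, and on the printed strand these letters were not in the windows of the other 5 genes. On the opposite strand, Scgb2b7 alone of the 7 windows held them.

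The secretory, immune and metabolic genes were followed in 27 lists of 698 genes, of which 497 were tested. Among the tested, 179 (36.0%) were lower at E19.5, 63 (12.7%) were higher and 255 did not pass. Among all genes, 20.6% were lower and 25.1% higher, which is the background for the counts of each list below. This background was 27.8% lower and 31.9% higher without adult replicate 3, and 9.27% and 40.1% scaled to own reads. Of the 307 list members expressed in the adult, 22 (7.17%, against 7.08% of all) were absent at E19.5 and 95 were below the adult level. At it were 46 (15.0%, against 22.1% of all), 33 were above it and 111 could not be placed. The share of all absent genes is not like for like, since 210 of those 430 genes were unnamed assembled loci, and the lists hold named genes. Among protein-coding genes expressed in the adult, 75 were absent, 962 below, 1196 at and 938 above the adult level, and 1175 were not placed. The kinds of genes differed in where they fell. Secretory genes had 14 of 92 absent (15.2%) and 4 at the adult level (4.35%), immune genes 6 of 67 (8.96%) and 5 (7.46%), and metabolic genes 2 of 148 (1.35%) and 37 (25.0%). Median log2 differences were -1.07, -0.68 and -0.06 in this order, against 0.02 for all genes. Scaled to own reads they were -0.44, -0.19 and 0.62, against 0.59 for all genes.

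**Figure D2:**
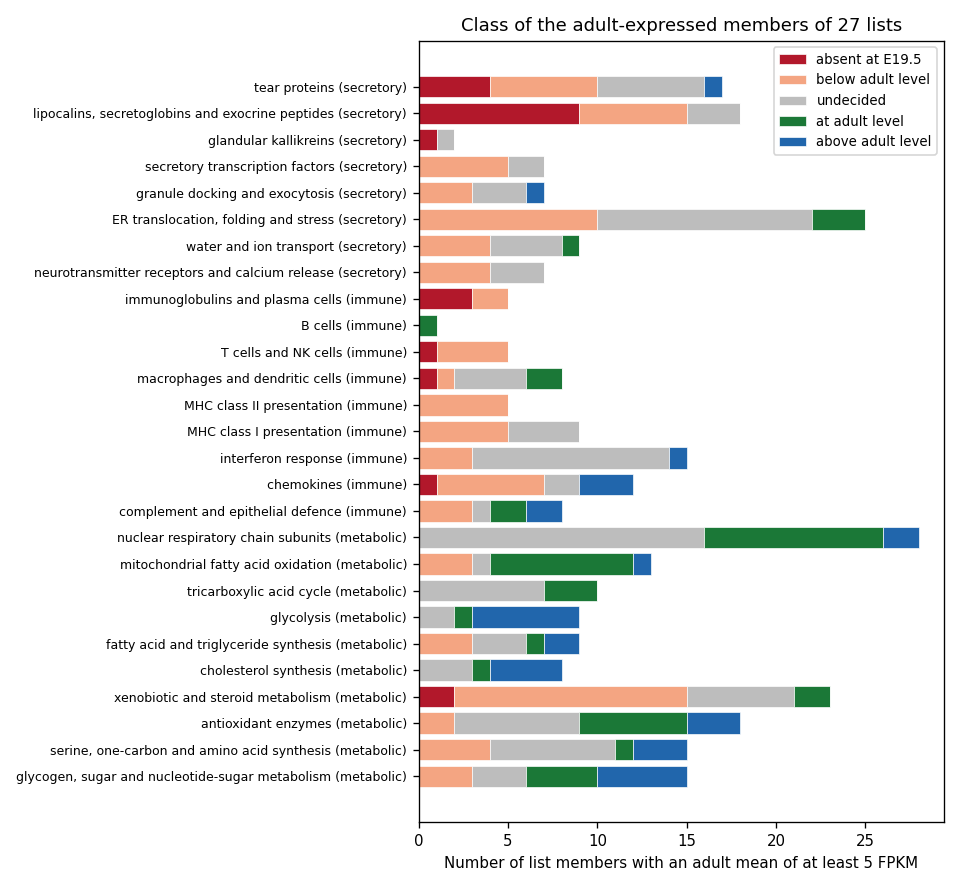
Number of adult-expressed genes (x axis) in each of the 27 gene lists (y axis), split into absent, below, at, above and not placed at E19.5. The list of lipocalins, secretoglobins and exocrine peptides has 9 of its 18 genes absent, while the respiratory chain has none absent and 10 of 28 at the adult level.

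Most tear proteins were lower at E19.5, and 4 of the 17 expressed in the adult were absent. Of 25 tested, 16 were lower (20.6% of all genes were), 8 did not pass and 1 was higher, with a median log2 difference of -1.98. Car6 was at 0.0630, 0 and 0.140 FPKM at E19.5, on 3 reads in all, and at 5463, 5639 and 15948 FPKM in the adult. The adult mean was 133022 times that at E19.5, with a counting interval of 45518 to 645035 (log2 difference -12.85, SE 0.43, adjusted p = 3.32e-05). Pip, the prolactin-induced protein of many exocrine fluids, was at 0.0958, 0 and 0.0534 FPKM at E19.5 and 1241, 764 and 484 FPKM in the adult (log2 difference -9.52, SE 0.35, adjusted p = 4.08e-05). Wfdc12, a small antiprotease-like protein, had no read at E19.5 and was at 8972, 7361 and 317 FPKM in the adult, at least 36676-fold more. In the adult, Car6 was highest in replicate 3, whereas Pip and Wfdc12 were lowest there, and none of the 3 genes had overlapping stages.

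Pigr, the receptor that carries polymeric antibodies across the epithelium into tears, was absent as well. It was at 0.0568, 0.0276 and 0.0317 FPKM at E19.5, on 4 reads, and at 408, 446 and 158 FPKM in the adult. The ratio of means was 8714, with a counting interval of 3403 to 31982 (log2 difference -8.21, SE 0.41, adjusted p = 7.34e-05). All 3 adult libraries were thus far above the E19.5 libraries, and E17.5 LG had a mean of 0.0278 FPKM.

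Mucl2, a mucin-like secretory product, was at 1.09, 0 and 0.202 FPKM at E19.5 and at 679557, 807362 and 171251 FPKM in the adult, where it was among the most abundant transcripts of the gland. The 12 reads at E19.5 were unevenly spread, 1 library having none (log2 difference -18.35, SE 0.64, adjusted p = 3.62e-05). In E17.5 LG it was at 46.0, 0.164 and 0 FPKM, a level carried by 1 library alone, in which Scgb2b2 and Scgb1b7 were likewise high at 45.2 and 14.4 FPKM.

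Other tear proteins were present below the adult level. Wfdc18, a relative of Wfdc12, was already abundant at 460.4, 660.2 and 834 FPKM against 2691, 4920.5 and 7875 FPKM in the adult (log2 difference -2.89, SE 0.44, adjusted p = 0.0029). Its E19.5 mean was 12.6% of the adult mean, and the stages did not overlap. Ltf, the iron-binding lactoferrin, was low in every library at 0, 0 and 0.0369 FPKM at E19.5 and 0.961, 1.10 and 6.65 FPKM in the adult (adjusted p = 0.042, up to 0.11 without 1 library, but 0.13 scaled to own reads). Wfdc2, expressed by many ductal epithelia, was the exception, at 121, 109.7 and 129 FPKM at E19.5 and 26.5, 44.5 and 61.9 FPKM in the adult (log2 difference 1.49, SE 0.32, adjusted p = 0.011). Lyz2, the lysozyme of macrophages, was at 119, 91.7 and 120.5 and 97.3, 184 and 193 FPKM, and the stages overlapped (adjusted p = 0.27). Bpifa2 and Smr3a, abundant in salivary glands, were high in adult replicate 2 only, at 597 and 275 FPKM, and could not be placed.

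Lipocalins, secretoglobins and exocrine-gland secreted peptides (Esp), small carriers and pheromone-like peptides released in tears, held 9 of the 22 absent list members. Of 19 tested, 16 were lower and 3 did not pass, and of the 18 expressed in the adult 9 were absent and 6 below the adult level. The median log2 difference was -5.09, or -6.82 with genes without reads set at their bound. Members of these families resemble each other closely, so reads may have been divided between them and single values are uncertain. Scgb2b7 had no read at E19.5 and was at 1279, 961 and 387 FPKM in the adult, at least 7003-fold more. Esp3 likewise had none and was at 189, 239 and 79.9 FPKM in the adult, at least 1902-fold more. Scgb2b24, Esp16, Esp1, Esp34, Scgb1b24, Scgb1b27 and Lcn3 were also without a read, with adult means of 594 FPKM for Scgb2b24, 72.5 for Esp16, 42.8 for Esp1, 10.2 for Esp34, 32.0 for Scgb1b24, 7.38 for Scgb1b27 and 6.59 for Lcn3. Of the 9 absent genes, Scgb1b27 alone could no longer be placed without adult replicate 3. Leaving out another library ended the calls of Esp1, Esp16 and Scgb1b27, with adjusted p up to 0.088 for Esp1, 0.067 for Esp16 and 0.082 for Scgb1b27.

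The most abundant members were low at E19.5, some without being absent. Scgb2b2 was at 9.17, 15.2 and 11.7 FPKM at E19.5 and at 871600.0, 624616 and 75437 FPKM in the adult (log2 difference -14.72, SE 0.90, adjusted p = 1.29e-04). Scgb1b7 and Scgb1b3, each with 4 reads at E19.5, had adult means of 182690.0 FPKM for Scgb1b7 and 177500.0 FPKM for Scgb1b3, with adult replicate 3 an order of magnitude or more below the others. Some peptides had started. Esp6 was at 265, 309.7 and 357 FPKM at E19.5 against 74649, 58508 and 9759 FPKM in the adult (log2 difference -6.82, SE 0.76, adjusted p = 9.52e-04), and Esp18 at 85.3, 123 and 129 FPKM against 19566, 14953 and 3941 FPKM (log2 difference -6.55, SE 0.61, adjusted p = 5.23e-04). All embryonic libraries of both genes were thus well above the limit of absence and all were below the lowest adult library.

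Glandular kallikreins, serine proteases of exocrine secretions, were scarcely measured, with 3 of 17 genes tested, of which 1 was lower and 2 did not pass, against 2 lower and 0 higher without adult replicate 3, and 1 and 0 scaled to own reads. Klk1b11 was absent, with no read at E19.5 and 97.5, 96.9 and 3.95 FPKM in the adult, at least 486-fold more. Klk1 was at 0, 18.7 and 0.122 FPKM in the adult, high in 1 library only, and could not be placed.

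**Figure D3:**
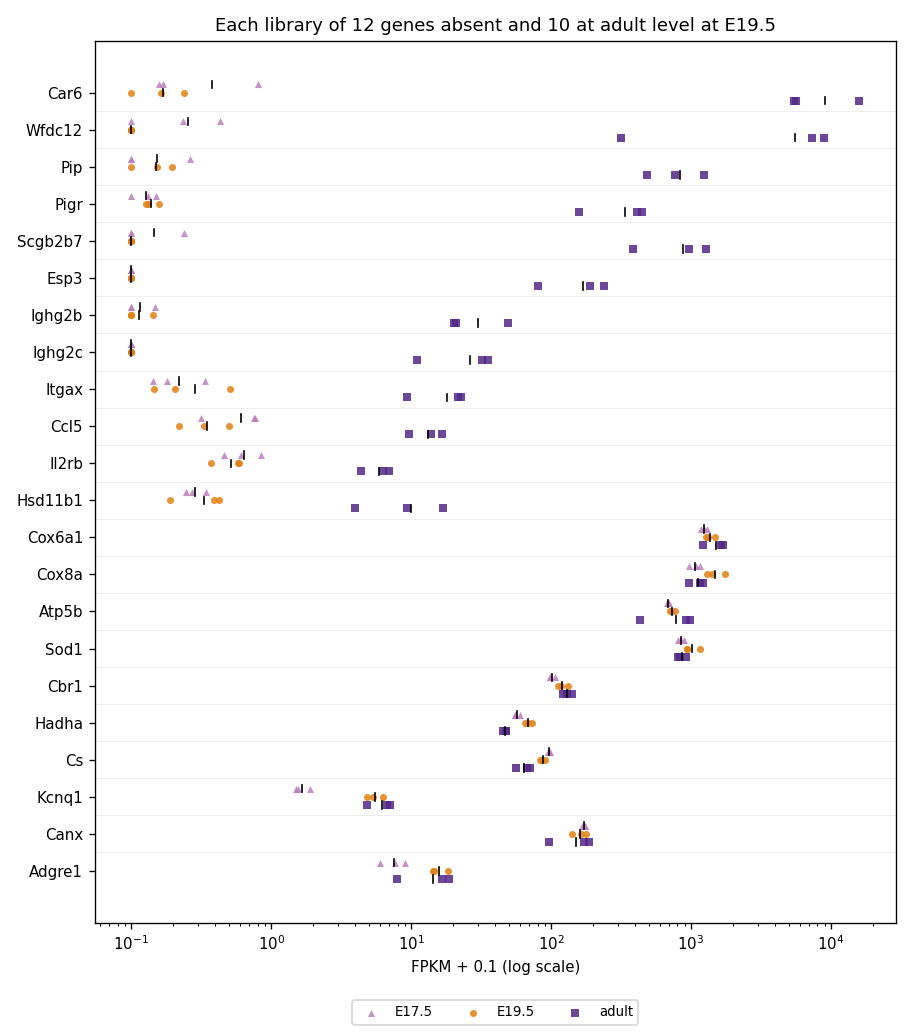
FPKM plus 0.1 on a log x axis in each library of E17.5, E19.5 and adult LG (1 point each) for 12 absent genes and 10 genes at the adult level, with black ticks at the means. The absent genes lie near the left edge in all embryonic libraries and far to the right in the adult, and the other genes lie within a 2-fold range of means in E19.5 and adult LG.

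Transcription factors of secretory cells were present but below the adult level. Of 9 tested, 6 were lower, 2 did not pass and 1 was higher, and none of the 7 expressed in the adult was absent. The counts were 7 lower and 2 higher without adult replicate 3, and 2 and 2 scaled to own reads. Xbp1, which drives the build-up of the secretory endoplasmic reticulum (ER), was at 2.92, 5.14 and 3.45 FPKM at E19.5 and 89.8, 65.3 and 58.8 FPKM in the adult (log2 difference -3.90, SE 0.26, adjusted p = 1.68e-04). Among these factors, it was the furthest below the adult, and the stages did not overlap. Elf5, a factor of secretory epithelia, was at 25.2, 30.3 and 33.0 and 65.9, 56.8 and 61.2 FPKM (log2 difference -1.04, adjusted p = 0.0052), but scaled to own reads its difference was -0.15 (adjusted p = 0.75). Esrrg, a nuclear receptor, was at 2.06, 1.16 and 1.03 and 16.3, 16.9 and 3.59 FPKM (log2 difference -2.24, adjusted p = 0.017, up to 0.068 without 1 library). Creb3l1 and Barx2, the latter a homeobox factor of LG branching, did not pass, with log2 differences of -0.44 for Creb3l1 (SE 0.51) and 1.07 for Barx2 (SE 0.39). Foxi1, the factor of ionocytes, ran the other way, at 5.05, 4.15 and 3.19 FPKM at E19.5 and 0.176, 0.401 and 0.0556 FPKM in the adult (log2 difference 2.08, SE 0.21, adjusted p = 6.53e-04).

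The machinery of granule release had no absent member. Of 15 genes tested, 7 were lower, 6 did not pass and 2 were higher, against 9 lower and 4 higher without adult replicate 3, and 3 and 2 scaled to own reads. Rab27a, a small GTPase of secretory granules, was at 12.4, 12.7 and 12.4 FPKM at E19.5 and 158, 130.3 and 42.2 FPKM in the adult (log2 difference -2.84, SE 0.49, adjusted p = 0.0045). Rab26, a granule GTPase of exocrine cells, was at 0.602, 0.390 and 0.268 and 14.4, 13.3 and 6.25 FPKM (log2 difference -3.05, SE 0.32, adjusted p = 7.61e-04). Both were lower in every embryonic library than in any adult one. Rab11a, a GTPase of recycling endosomes, was at 21.3, 21.9 and 28.7 FPKM at E19.5 and 11.5, 8.54 and 9.47 FPKM in the adult, above it (log2 difference 1.20, adjusted p = 0.0044).

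Genes of ER translocation and folding, which serve every secreted protein, were divided. Of 32 tested, 13 were lower, 19 did not pass and none was higher, against 23 lower and 1 higher without adult replicate 3, and 11 and 8 scaled to own reads. Sdf2l1, an ER chaperone cofactor, was at 26.6, 31.9 and 40.7 FPKM at E19.5 and 978, 829 and 181 FPKM in the adult (log2 difference -3.98, SE 0.65, adjusted p = 0.0037). Sec11c, a catalytic subunit of signal peptidase, was at 30.9, 34.0 and 42.7 and 638, 531 and 192 FPKM (log2 difference -3.46, SE 0.47, adjusted p = 0.0019). Sec61b, a subunit of the translocation channel, was at 200.04, 209 and 268 and 1100.1, 879 and 337 FPKM (log2 difference -1.62, adjusted p = 0.028, up to 0.094 without 1 library). These 3 genes were lower in all embryonic libraries, and adult replicate 3 was the adult library nearest to E19.5 in each.

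Hspa5, the main ER chaperone, was at 429.5, 589.7 and 665 FPKM at E19.5 and 1249, 1039.6 and 322 FPKM in the adult, and could not be placed (adjusted p = 0.53). Without adult replicate 3 it was called below the adult level. Calnexin (Canx), calreticulin (Calr) and Srp14, a subunit of the signal recognition particle, were at the adult level. Canx was at 141, 163 and 178 FPKM at E19.5 and 186, 171 and 97.0 FPKM in the adult (log2 difference 0.13, 95% confidence interval -0.57 to 0.84). Calr had a log2 difference of 0.08 (interval -0.57 to 0.74) at a low listed level, and Srp14 one of 0.07 (interval -0.73 to 0.87).

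None of the 9 adult-expressed genes in the list of water and ion transport was absent, but Aqp8, the absent water channel described above, is not in that list. Of 19 tested, 6 were lower, 11 did not pass and 2 were higher, against 7 lower and 4 higher without adult replicate 3, and 1 and 3 scaled to own reads. Slc12a2, the cotransporter that loads acinar cells with chloride, was at 28.5, 28.6 and 25.3 FPKM at E19.5 and 49.0, 76.6 and 129.97 FPKM in the adult (log2 difference -1.49, SE 0.36, adjusted p = 0.016, up to 0.064 without 1 library), and did not pass scaled to own reads (adjusted p = 0.45). Aqp3, a basolateral water channel, was at 2.25, 1.03 and 1.81 and 8.16, 14.5 and 42.5 FPKM (log2 difference -2.79, adjusted p = 0.0085, 0.077 scaled to own reads). Scnn1a, a subunit of the epithelial sodium channel, was at 2.16, 1.27 and 1.82 and 8.93, 9.77 and 7.39 FPKM (log2 difference -1.83, adjusted p = 9.16e-04). In these 3 genes the stages did not overlap, and each was transcribed in every embryonic library.

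Kcnq1, a potassium channel of secretory epithelia, was already at the adult level, at 6.15, 5.27 and 4.76 FPKM at E19.5 and 4.76, 7.01 and 6.66 FPKM in the adult (log2 difference -0.15, interval -0.63 to 0.33). Cftr and Best2, anion channels, were higher at E19.5, with means of 1.90 against 0.242 FPKM for Cftr (adjusted p = 0.0014) and 1.34 against 0.129 FPKM for Best2 (adjusted p = 0.0023). Aqp1, the water channel of vessels, overlapped between the stages, at 244, 189 and 183 FPKM at E19.5 and 86.6, 134 and 243 FPKM in the adult.

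In the list of neurotransmitter receptors and calcium release, the muscarinic receptor Chrm3 was transcribed at E19.5. Of 15 tested genes of this list, 4 were lower, 8 did not pass and 3 were higher, against 6 lower and 4 higher without adult replicate 3, and 1 and 4 scaled to own reads. Chrm3, the main muscarinic receptor of exocrine cells, was at 13.1, 11.3 and 9.13 FPKM at E19.5 and 24.3, 25.8 and 16.8 FPKM in the adult (log2 difference -0.93, SE 0.24, adjusted p = 0.019, up to 0.082 without 1 library), and its difference scaled to own reads was -0.07 (adjusted p = 0.85). P2rx7, an ATP-gated channel, was at 4.39, 2.61 and 2.88 and 25.2, 21.2 and 13.7 FPKM (log2 difference -2.28, SE 0.28, adjusted p = 0.0014). Orai1, the pore of store-operated calcium entry, was at 3.19, 4.07 and 4.05 and 9.21, 9.62 and 12.3 FPKM (log2 difference -1.25, adjusted p = 0.0028, 0.37 scaled to own reads). No stage overlapped the other in these 3 genes. Gnas, the stimulatory G protein subunit, and Ednrb, an endothelin receptor, were higher at E19.5, with log2 differences of 1.62 for Gnas (adjusted p = 8.88e-04) and 1.55 for Ednrb (adjusted p = 0.0019).

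Antibody genes made up 3 of the 6 absent immune genes. Of 12 tested genes of immunoglobulins and plasma cells, 9 were lower and 3 did not pass, with 6 lower scaled to own reads. Ighg2b, an immunoglobulin G heavy chain, was at 0.0427, 0 and 0 FPKM at E19.5, on 1 read, and 20.7, 20.0 and 49.1 FPKM in the adult (log2 difference -4.81, SE 0.35, adjusted p = 2.37e-04). Ighg2c had no read at E19.5 and was at 10.9, 32.1 and 35.4 FPKM in the adult, at least 296-fold more. Iglc3, a light chain, also had none and was at 3.67, 10.5 and 19.4 FPKM, at least 43.1-fold more, though constant regions of this kind share sequence. The 3 genes were absent in all embryonic libraries, and no adult library was without them.

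Mzb1, an ER protein of plasma and marginal zone B cells, was at 1.26, 1.47 and 1.13 FPKM at E19.5 and 36.2, 42.5 and 36.8 FPKM in the adult (log2 difference -4.11, SE 0.17, adjusted p = 4.36e-05). Ighm, the heavy chain of immunoglobulin M, was at 2.79, 2.18 and 2.16 and 7.47, 18.7 and 28.6 FPKM (log2 difference -2.34, SE 0.45, adjusted p = 0.0070), but did not pass scaled to own reads (adjusted p = 0.093). Of 5 B cell genes tested, 2 were lower and 3 did not pass, against 1 lower and 0 higher without adult replicate 3, and 0 and 0 scaled to own reads. Cd37, a tetraspanin of B cells and other leukocytes, was at the adult level, at 5.29, 5.34 and 5.75 FPKM at E19.5 and 4.0, 5.82 and 8.12 FPKM in the adult (log2 difference -0.07, interval -0.66 to 0.53).

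T cell and NK cell genes were lower for 14 of 20 tested, did not pass for 5 and were higher for 1, against 14 lower and 1 higher without adult replicate 3, and 8 and 1 scaled to own reads. Trbc2, a constant region of the T cell receptor, was at 0.826, 0.482 and 1.47 FPKM at E19.5 and 7.79, 9.12 and 8.91 FPKM in the adult (log2 difference -2.35, SE 0.23, adjusted p = 5.99e-04). Il2rb, a receptor chain for interleukins 2 and 15, was called absent, at 0.493, 0.479 and 0.275 FPKM at E19.5 and 4.32, 6.23 and 6.87 FPKM in the adult (log2 difference -2.25, SE 0.21, adjusted p = 4.92e-04). With 46 reads at E19.5, Il2rb was low rather than silent, and scaled to own reads it fell under the adult limit. Every embryonic library was below every adult library for both genes. Lck, a T cell kinase, was the gene that was higher, at 7.81, 8.58 and 11.7 FPKM at E19.5 and 2.55, 5.49 and 2.64 FPKM in the adult (log2 difference 1.22, adjusted p = 0.016, up to 0.068 without 1 library).

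Macrophage genes were transcribed at E19.5. Of 18 genes of macrophages and dendritic cells, 6 were lower, 9 did not pass and 3 were higher, against 5 lower and 4 higher without adult replicate 3, and 2 and 5 scaled to own reads. Adgre1, which encodes the macrophage antigen F4/80, was at the adult level, at 14.3, 14.5 and 18.1 FPKM at E19.5 and 7.79, 16.5 and 18.5 FPKM in the adult (log2 difference 0.20, interval -0.60 to 1.00), but without adult replicate 3 it could not be placed. Cx3cr1, the fractalkine receptor, was at 4.95, 4.77 and 4.72 and 3.96, 7.28 and 8.47 FPKM (log2 difference -0.33, interval -0.97 to 0.32). The stages overlapped in both genes.

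Lyve1 and Mrc1, receptors of resident macrophages of which Lyve1 also marks lymphatic vessels, were higher at E19.5. Lyve1 was at 70.3, 62.9 and 59.8 FPKM at E19.5 and 0.284, 0.216 and 1.08 FPKM in the adult (log2 difference 5.46, SE 0.25, adjusted p = 6.45e-05). Mrc1 was at 42.8, 43.7 and 45.3 and 2.02, 2.97 and 5.02 FPKM (log2 difference 3.43, SE 0.27, adjusted p = 3.12e-04). Itgax, the integrin CD11c of dendritic cells, was called absent, at 0.405, 0.0463 and 0.106 FPKM at E19.5, on 23 reads, and 9.23, 22.8 and 21.6 FPKM in the adult (log2 difference -3.91, SE 0.36, adjusted p = 5.00e-04). None of these 3 genes had overlapping stages.

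Antigen presentation by MHC class II was far below the adult level. Of 10 genes tested, 9 were lower and 1 did not pass, with a median log2 difference of -2.27, or -2.63 with bounds. Cd74, the invariant chain, was at 19.3, 12.9 and 15.9 FPKM at E19.5 and 592, 1206 and 1122 FPKM in the adult (log2 difference -5.79, SE 0.33, adjusted p = 1.05e-04). H2-Ab1, a class II chain, was at 8.03, 5.50 and 8.49 and 394, 747 and 625 FPKM (log2 difference -6.11, SE 0.30, adjusted p = 7.21e-05). H2-Aa, its partner, was at 6.71, 4.04 and 5.51 and 207, 349.9 and 312 FPKM (log2 difference -5.49, SE 0.28, adjusted p = 7.51e-05). All 3 were transcribed in each embryonic library at a few FPKM or more, and each adult library was many times higher.

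MHC class I genes were lower for 9 of 15 tested, did not pass for 5 and were higher for 1, against 8 lower and 3 higher without adult replicate 3, and 1 and 2 scaled to own reads. B2m, the light chain of class I molecules, was at 669, 739 and 963 FPKM at E19.5 and 1684, 1864 and 1549 FPKM in the adult (log2 difference -1.12, SE 0.22, adjusted p = 0.0078, up to 0.052 without 1 library), but its difference was -0.21 scaled to own reads (adjusted p = 0.6). Nlrc5, which activates class I genes, was at 0.714, 0.432 and 0.720 and 4.73, 7.20 and 11.2 FPKM (log2 difference -2.36, adjusted p = 0.0014). Class I genes here have near-identical copies, so values of single H2 genes are uncertain.

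Interferon-response genes did not pass for 21 of 26, with 4 lower and 1 higher, against 5 lower and 4 higher without adult replicate 3, and 2 and 2 scaled to own reads. Bst2, a membrane tether of viruses, was at 164, 174 and 230.3 FPKM at E19.5 and 80.8, 143 and 225 FPKM in the adult (log2 difference 0.44, SE 0.39, adjusted p = 0.39). Irf8, a factor of myeloid cells, was at 3.63, 3.31 and 3.81 and 18.9, 20.2 and 9.57 FPKM (log2 difference -1.84, adjusted p = 0.0035). Of 15 adult-expressed genes of this list 11 could not be placed, and in Bst2 the adult libraries spanned the lower E19.5 libraries.

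Chemokines went both ways, with 11 of 23 lower, 7 not passing and 5 higher, against 11 lower and 6 higher without adult replicate 3, and 7 and 7 scaled to own reads. Ccl28, the epithelial chemokine that draws antibody-making cells to glands, was at 0.756, 0.436 and 0.737 FPKM at E19.5 and 294, 202 and 57.9 FPKM in the adult (log2 difference -6.54, SE 0.58, adjusted p = 4.44e-04). Ccl5, made by T cells and NK cells, was called absent, at 0.119, 0.232 and 0.398 FPKM at E19.5, on 6 reads, and 9.50, 16.4 and 13.7 FPKM in the adult (log2 difference -3.48, SE 0.23, adjusted p = 1.78e-04). Ccl9, a myeloid chemokine, was at 8.11, 7.27 and 7.91 and 119, 161 and 237 FPKM (log2 difference -4.25, SE 0.27, adjusted p = 1.57e-04). No embryonic library reached an adult one in these 3 genes.

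Ccl7, a monocyte chemokine, was above the adult level, at 36.0, 58.9 and 91.3 FPKM at E19.5 and 3.11, 10.6 and 5.57 FPKM in the adult (log2 difference 3.12, SE 0.48, adjusted p = 0.0031). Cxcl13, which attracts B cells, was at 36.8, 43.7 and 68.0 and 1.08, 5.76 and 13 FPKM (log2 difference 3.07, SE 0.68, adjusted p = 0.012, up to 0.052 without 1 library). Of the complement list, 3 of 12 were lower, 7 did not pass and 2 were higher, against 4 lower and 4 higher without adult replicate 3, and 2 and 2 scaled to own reads. C3, the central complement component, was at 5.67, 4.17 and 3.74 FPKM at E19.5 and 58.3, 126 and 155 FPKM in the adult (log2 difference -4.27, SE 0.39, adjusted p = 4.78e-04). C1s1, a protease of the classical pathway, was above the adult level at 194, 171 and 168 and 27.7, 51.3 and 73.1 FPKM (log2 difference 1.89, adjusted p = 0.0065), while its partner C1ra was at that level (log2 difference 0.09, interval -0.77 to 0.94) and could not be placed without adult replicate 3. Tlr4, the endotoxin receptor, was at the adult level too (log2 difference -0.14, interval -0.73 to 0.45).

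Of the 46 list members already at the adult level, 37 were metabolic genes. They were 25.0% of the 148 metabolic genes expressed in the adult, close to the 22.1% of all adult-expressed genes. In the nuclear genes of the respiratory chain, 37 of 43 did not pass, 4 were lower and 2 were higher. The counts were 12 lower and 3 higher without adult replicate 3, and 2 and 22 scaled to own reads. The median log2 difference was -0.00, near that of all genes, and 0.80 scaled to own reads. Cox6a1, a subunit of cytochrome c oxidase, was at 1332, 1279.9 and 1486 FPKM at E19.5 and 1636, 1690.3 and 1212 FPKM in the adult (log2 difference -0.13, interval -0.66 to 0.39). Cox8a, of the same complex, was at 1307, 1404 and 1757 and 1165, 1217 and 959.9 FPKM (log2 difference 0.41, interval -0.11 to 0.94). Atp5b, the catalytic subunit of ATP synthase, was at 721, 709 and 768 and 986, 924 and 428 FPKM (log2 difference 0.00, interval -0.84 to 0.85).

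The stages overlapped in Cox6a1 and Atp5b and were just apart in Cox8a. In Atp5b, adult replicate 3 was lower than the E19.5 libraries and replicates 1 and 2 were higher, and without replicate 3 its log2 difference passed at -0.38. Atp5a1, Atp5g3, Ndufa8, Ndufb3, Ndufb10, Sdha and Sdhb, subunits of ATP synthase and of complexes I and II, were also at the adult level, with log2 differences of 0.08 for Atp5a1, 0.17 for Atp5g3, 0.12 for Ndufa8, -0.05 for Ndufb3, 0.22 for Ndufb10, -0.12 for Sdha and -0.06 for Sdhb. Without adult replicate 3, 41 of the 46 list members kept this class, while Cd37 and Tlr4 fell under the adult limit and Adgre1, C1ra and Aldoa could not be placed. Scaled to own reads, none of the 46 kept it, as 29 were above the adult level, 9 could not be placed and 8 fell under the adult limit.

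Fatty acid oxidation was at the adult level for 8 of 13 adult-expressed genes. Of 20 tested, 4 (20%) were lower, 12 did not pass and 4 (20%) were higher, near the shares of all genes (20.6% and 25.1%). The counts were 6 lower and 4 higher without adult replicate 3, and 2 and 9 scaled to own reads. Those at the adult level were Acadm and Acadvl, dehydrogenases of medium and very long chains, Hadha and Echs1, which act on the enoyl step, the electron carriers Etfa, Etfb and Etfdh, and the carnitine carrier Slc25a20. Hadha was called higher, at 64.9, 68.5 and 72.6 FPKM at E19.5 and 47.3, 47.9 and 44.9 FPKM in the adult (adjusted p = 0.033, up to 0.14 without 1 library), but its log2 difference of 0.54 (interval 0.16 to 0.93) was within 2-fold. The other 7 ran from -0.29 (Acadvl) to 0.53 (Slc25a20). Acsl1, which activates long-chain fatty acids, was below the adult level, at 3.82, 2.95 and 3.02 FPKM at E19.5 and 10.6, 11.6 and 17.3 FPKM in the adult (log2 difference -1.71, SE 0.23, adjusted p = 0.0018, 0.15 scaled to own reads).

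Genes of the tricarboxylic acid cycle did not pass for 15 of 17, with 1 lower and 1 higher, against 5 lower and 2 higher without adult replicate 3, and 0 and 9 scaled to own reads. Cs, citrate synthase, was at the adult level at 90.7, 86.7 and 82.9 FPKM at E19.5 and 70.1, 67.4 and 55.9 FPKM in the adult (log2 difference 0.43, interval 0.00 to 0.86). Idh3b and Dlat, subunits of isocitrate and pyruvate dehydrogenase, were at it as well, with log2 differences of 0.16 for Idh3b and -0.41 for Dlat. Idh2 was at 322, 285 and 313 and 378, 332 and 140.3 FPKM and could not be placed.

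Most glycolysis genes were above the adult level. Of 13 genes tested, 8 were higher (25.1% of all genes were), 5 did not pass and none was lower, and 6 of 9 adult-expressed genes were above the adult level. Ldha, which makes lactate, was at 743, 751 and 941 FPKM at E19.5 and 199, 212 and 242 FPKM in the adult (log2 difference 1.89, SE 0.20, adjusted p = 7.91e-04). Pgk1, phosphoglycerate kinase, was at 606, 666 and 823 and 181, 181 and 139 FPKM (log2 difference 2.06, SE 0.22, adjusted p = 8.11e-04). Eno1, enolase, was at 471, 497 and 604 and 50.2, 79.5 and 99.5 FPKM (log2 difference 2.81, SE 0.29, adjusted p = 7.38e-04). Every embryonic library was above every adult library in these 3 genes. Slc16a3, the lactate exporter, had means of 36.4 FPKM at E19.5 and 2.01 FPKM in the adult (adjusted p = 3.50e-04), and Aldoa, aldolase, was at the adult level (log2 difference 0.46, interval -0.08 to 0.99).

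Lipid synthesis genes went both ways, as did all genes. Of 20 genes of fatty acid and triglyceride synthesis, 6 were lower, 10 did not pass and 4 were higher. Among all genes, 20.6% were lower and 25.1% higher. The median log2 difference of this list was 0.003, against 0.02 for all genes. Its counts were 6 lower and 7 higher without adult replicate 3, and 2 and 5 scaled to own reads. Scd1, the desaturase that makes oleate, was at 25.3, 23.9 and 21.7 FPKM at E19.5 and 482, 392 and 130.01 FPKM in the adult (log2 difference -3.57, SE 0.49, adjusted p = 0.0020). Me1, malic enzyme, was at 17, 14.5 and 14.7 and 103, 126 and 84.4 FPKM (log2 difference -2.67, SE 0.21, adjusted p = 2.94e-04). Fads2, a desaturase of polyunsaturated fatty acids, was above the adult level at 88.6, 81.1 and 77.1 and 2.47, 6.27 and 47.0 FPKM (log2 difference 2.96, SE 0.90, adjusted p = 0.037, up to 0.1 without 1 library). Adult replicate 3 was the lowest adult library for Scd1 and Me1 and the highest for Fads2, which without it fell under the adult limit. Agpat2, of triglyceride synthesis, was at the adult level, with a log2 difference of -0.24.

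Cholesterol synthesis was higher for 7 of 12 tested genes and lower for none, with 5 not passing, against 3 lower and 7 higher without adult replicate 3, and 0 and 7 scaled to own reads. Fdft1, squalene synthase, was at 38.8, 49.2 and 58.3 FPKM at E19.5 and 6.57, 9.92 and 19.9 FPKM in the adult (log2 difference 2.03, SE 0.39, adjusted p = 0.0071). Srebf2, the factor that controls the pathway, was at 81.6, 77.7 and 77.6 and 37.5, 43.8 and 35.5 FPKM (log2 difference 1.01, SE 0.17, adjusted p = 0.0044). No stage overlapped the other in these genes, and Sc5d was at the adult level with a log2 difference of -0.37.

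The metabolism of foreign compounds and steroids was the metabolic list furthest below the adult. Of 30 genes tested, 17 were lower, 13 did not pass and none was higher, against 18 lower and 2 higher without adult replicate 3, and 10 and 3 scaled to own reads. The median log2 difference was -1.37, or -0.73 scaled to own reads. Cyp2b10, a drug-inducible P450, was at 0.325, 0.527 and 0.121 FPKM at E19.5 and 707, 678 and 99.0 FPKM in the adult (log2 difference -8.11, SE 0.76, adjusted p = 5.32e-04). Cyp2f2, a P450 of airway secretory cells, was at 175, 141 and 144 and 1699.9, 2839 and 4813 FPKM (log2 difference -4.21, SE 0.39, adjusted p = 5.16e-04). Por, which passes electrons to P450 enzymes, was at 66.4, 62.5 and 58.0 and 306, 484 and 467 FPKM (log2 difference -2.70, SE 0.24, adjusted p = 4.27e-04). All were lower in each embryonic library, and Cyp2b10 exceeded 0.5 FPKM in 1 of them only.

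Absence was rare among metabolic genes, with 2 in this list and none in the others. One of them, Hsd11b1, which regenerates active glucocorticoid, was at 0.323, 0.288 and 0.0899 FPKM at E19.5, on 26 reads, and 3.90, 9.20 and 16.7 FPKM in the adult (log2 difference -2.97, SE 0.45, adjusted p = 0.0029). It was highest in adult replicate 3 and was also absent without it. Cbr1, a carbonyl reductase, was at the adult level at 117, 111 and 131 and 129.7, 139.99 and 122 FPKM (log2 difference -0.12, interval -0.54 to 0.30), as was Ephx2, an epoxide hydrolase (log2 difference -0.15).

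Antioxidant enzymes were at the adult level for 6 of 18 adult-expressed genes, Sod1, Prdx1, Prdx6, Cat, Gsr and Gss. Of 20 tested, 2 were lower, 15 did not pass and 3 were higher, against 7 lower and 4 higher without adult replicate 3, and 0 and 9 scaled to own reads. Sod1, cytosolic superoxide dismutase, was at 941, 932 and 1155 FPKM at E19.5 and 805, 927 and 838 FPKM in the adult (log2 difference 0.23, interval -0.24 to 0.70). Prdx4, the peroxiredoxin of the ER, was above the adult level at 132, 133 and 173 and 15.4, 18.3 and 33.4 FPKM (log2 difference 2.72, SE 0.32, adjusted p = 0.0011). Mt1, a metallothionein, was below it at 3.40, 4.73 and 4.50 and 19.6, 18.7 and 43.4 FPKM (log2 difference -2.34, SE 0.35, adjusted p = 0.0026, 0.081 scaled to own reads).

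In serine, one-carbon and amino acid synthesis, 5 of 24 were lower, 14 did not pass and 5 were higher, against 13 lower and 6 higher without adult replicate 3, and 3 and 8 scaled to own reads. On the deposited scale both shares, 20.8% lower and 20.8% higher, were near those of all genes (20.6% and 25.1%). Glul, glutamine synthetase, was at 306, 292 and 274 FPKM at E19.5 and 633, 964 and 851 FPKM in the adult (log2 difference -1.47, SE 0.22, adjusted p = 0.0029, 0.29 scaled to own reads). Asns, asparagine synthetase, was at 10.5, 13.7 and 17.6 and 276, 271 and 46.4 FPKM (log2 difference -3.38, SE 0.70, adjusted p = 0.0093). Got2, the mitochondrial aspartate aminotransferase, was at the adult level with a log2 difference of 0.07.

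Sugar and glycogen genes were lower for 4 of 22, did not pass for 10 and were higher for 8, against 9 lower and 8 higher without adult replicate 3, and 3 and 11 scaled to own reads. Taldo1, transaldolase of the pentose phosphate pathway, was at 213, 239 and 279 FPKM at E19.5 and 1002, 1095 and 586 FPKM in the adult (log2 difference -1.83, SE 0.29, adjusted p = 0.0035). Pygl, the liver-type glycogen phosphorylase, was higher at 9.26, 9.44 and 11.4 and 0.0601, 0.274 and 0.532 FPKM (log2 difference 3.11, SE 0.20, adjusted p = 1.54e-04). Gne, Cmas and G6pdx, which make and activate sialic acid and open the pentose phosphate pathway, were at the adult level with log2 differences of -0.06 for Gne, 0.32 for Cmas and -0.38 for G6pdx.

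**Figure D4:**
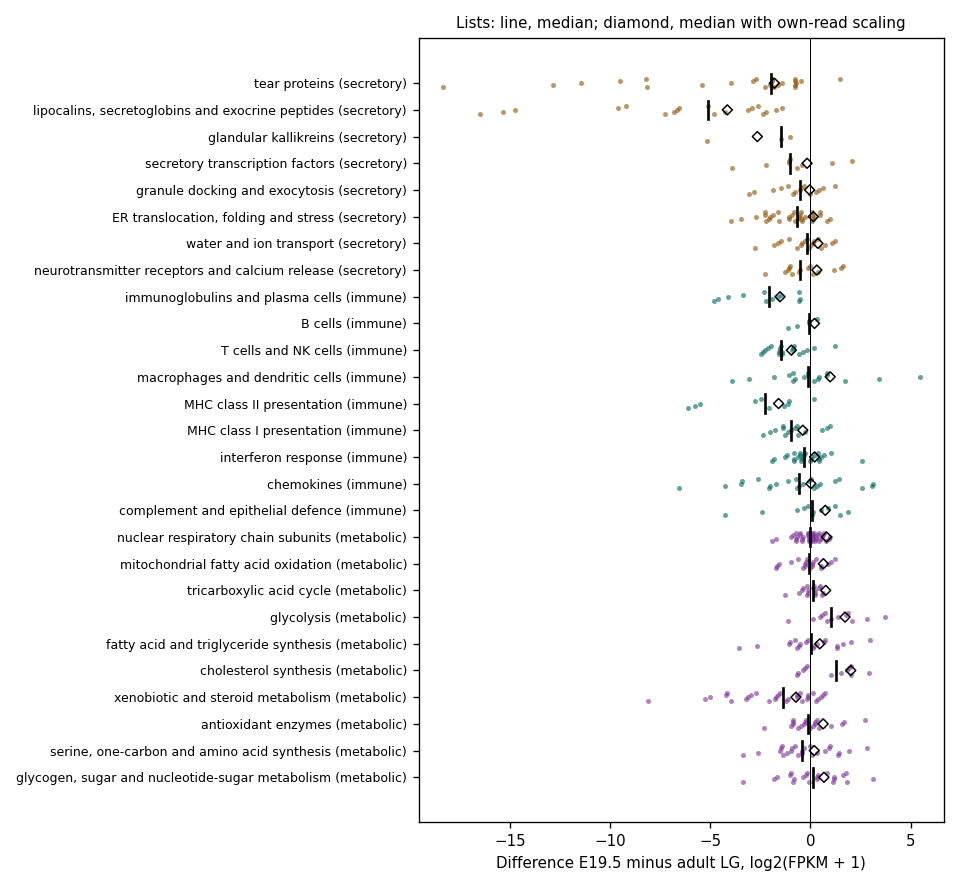
Log2 difference, E19.5 minus adult (x axis), of each tested gene in the 27 lists (y axis), with a line at the list median and a diamond at the median after scaling to own reads. The medians run from -5.09 for lipocalins, secretoglobins and exocrine peptides to 1.27 for cholesterol synthesis.

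Tpt1 and Krt18, outside the lists, were among the 10 most abundant genes at the adult level. Tpt1, a translationally controlled protein, was at 2009, 2191 and 2567 FPKM at E19.5 and 2804, 2289 and 1515 FPKM in the adult (log2 difference 0.07), and was above the adult level scaled to own reads (0.98, adjusted p = 0.0047). Krt18, a keratin of simple epithelia and the main contributor to the duct markers, was at 594, 690.2 and 803 and 636, 699 and 938 FPKM (log2 difference -0.11, interval -0.69 to 0.46), and could not be placed scaled to own reads (0.79, adjusted p = 0.2). Of the 10 most abundant genes above the adult level, 8 were ribosomal protein genes and 1 was a pseudogene of one, beside Tmsb4x, which encodes an actin-binding peptide. Rps27 was at 3233, 3802 and 5701 FPKM at E19.5 and 1855, 1837 and 1395 FPKM in the adult (log2 difference 1.29, SE 0.28, adjusted p = 0.011). Fth1, the iron-storing ferritin heavy chain, was below the adult level at 1218, 1184 and 1345 and 1975, 2729 and 3886 FPKM (adjusted p = 0.019, up to 0.083 without 1 library) but could not be placed scaled to own reads.

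Some genes below the adult level had risen since E17.5. This comparison shares the E19.5 libraries with the previous one, so that the values of both are given side by side and no relation between them was tested. Between E17.5 and E19.5, 12.4% of 17311 genes passed, with 7.71% higher and 4.67% lower at E19.5. Of 1390 tested genes below the adult level, 266 (19.1%) were higher at E19.5 than at E17.5 and 46 were lower, and of 1340 genes at the adult level 135 (10.1%) were higher and 49 lower. The 312 genes below the adult level that passed here in either direction became 114 to 275 when 1 library was left out, with E19.5 replicate 2 or 3 or E17.5 replicate 1 or 2 lowering the count more than 1.5 times, and 66 with all 9 libraries in the fit. Of the 137 secretory, 139 immune and 221 metabolic list members tested against the adult, 22, 53 and 30 were higher than at E17.5, and 1, 1 and 10 lower. Of all 18393 genes tested against the adult, 1328 were higher than at E17.5 and 690 lower. Only 8 of the 430 absent genes reached the filter of this fit, and 1 of them was lower at E19.5.

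Several exocrine products rose. Esp18 was at 2.45, 1.57 and 3.98 FPKM at E17.5, before the levels at E19.5 given above (log2 difference from E17.5 4.98, adjusted p = 0.0014). Esp6 was at 18.8, 14.8 and 43.3 FPKM at E17.5 (log2 difference 3.69, adjusted p = 0.0041), and Wfdc18 at 156, 154 and 338 FPKM (log2 difference 1.65, adjusted p = 0.033). Agr2 and Scgb2a2, chosen after their values were seen, had means of 2.91, 16.9 and 1921 FPKM for Agr2 and 0.316, 4.59 and 1424 FPKM for Scgb2a2 at E17.5, E19.5 and in the adult. Agr2 is a disulfide isomerase of mucous cells. All these genes were still many times below the adult after the step.

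Cyp2f2 was at 9.77, 9.38 and 27.2 FPKM at E17.5 (log2 difference 3.39, adjusted p = 0.0055). Adh1 and Cbr2, an alcohol dehydrogenase and a carbonyl reductase, stepped up by 1.58 for Adh1 (adjusted p = 0.016) and 2.04 for Cbr2 (adjusted p = 0.0085). Among secretory machinery, Chrm3 was at 3.0, 4.61 and 4.92 FPKM at E17.5 (log2 difference 1.24, adjusted p = 0.013), and Rab27a and Sec11c were higher at E19.5 by 0.76 for Rab27a (adjusted p = 0.0068) and 1.09 for Sec11c (adjusted p = 0.0080). Kcnq1 was at 1.79, 1.39 and 1.47 FPKM at E17.5 and higher at E19.5 (log2 difference 1.32, adjusted p = 0.0037). On the deposited scale, Kcnq1 at E19.5 was at the adult level, but scaled to own reads it did not keep that class.

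Immune genes made up the greatest number of risers in the lists. Of 26 interferon-response genes, 17 were higher than at E17.5, of 23 chemokines 12, of 18 macrophage and dendritic cell genes 10 and of 12 complement genes 7, while none of 20 T cell and NK cell genes was. Among all genes compared between E17.5 and E19.5, 7.71% were higher at E19.5. Bst2 was at 45.5, 44.5 and 43.3 FPKM at E17.5 (log2 difference 2.05, adjusted p = 0.0025), and Cxcl17, a mucosal chemokine, at 2.70, 0.954 and 9.36 FPKM before 66.4, 70.0 and 81.4 FPKM at E19.5 (log2 difference 4.12, adjusted p = 0.0090). B2m was at 339, 363 and 376 FPKM at E17.5 (log2 difference 1.12, adjusted p = 0.0083). Cxcl14, an epithelial chemokine, was the immune gene that was lower than at E17.5, with means of 20.6, 8.6 and 116 FPKM at E17.5, E19.5 and in the adult (adjusted p = 0.013). The class II genes Cd74, H2-Ab1 and H2-Aa did not pass, with E17.5 means of 15.7 FPKM for Cd74, 7.24 for H2-Ab1 and 3.86 for H2-Aa.

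**Figure D5:**
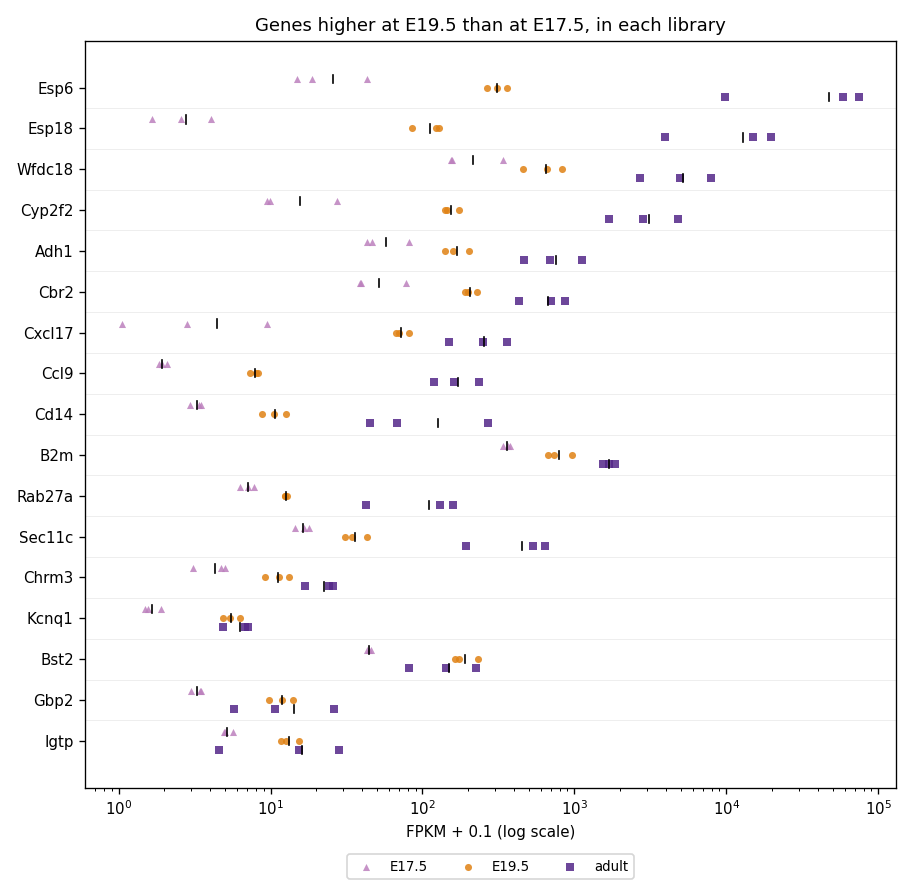
FPKM plus 0.1 on a log axis in each library of E17.5, E19.5 and adult LG for 17 genes that were higher at E19.5 than at E17.5. Esp6 and Esp18 stay far below the adult after the step, while Kcnq1, Bst2, Gbp2 and Igtp overlap it at E19.5.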

How the data were processed

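RNA of lacrimal gland tissue was extracted with Trizol, poly(A) RNA was selected, and paired-end libraries were sequenced. Per the submitters' processing notes and the study's methods, reads were handled with CASAVA 1.8, aligned with HISAT2 2.0.5 and counted with featureCounts 1.5.0-p3. The notes name NCBIM37, and the build of the gene models is not stated further. The authors deposited 1 FPKM value for each of 63862 genes, of which 52636 have Ensembl identifiers and 11226 are assembled loci. Whole reads were recovered from the deposited FPKM values and the exon lengths of GENCODE M21, and 92.6% to 93.6% of values up to 1000 reads came out whole within 0.01 reads. Intervals and floors from reads cover counting error only.

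Genes whose mean in the 6 libraries reached 0.5 FPKM were tested with limma 3.58.1 (trended variances, log2(FPKM + 1), Benjamini-Hochberg adjustment, 0.05) in R 4.3.3. The pseudocount makes low genes appear to change less than they did. Alternatives were scaling to own reads, a pseudocount of 0.1, other filters, limma-voom on these reads (6737 genes called of 14415), other fits and leaving out each library. The test was checked on simulated data in which few genes were changed, 197 of 13880 tested for a log2 change of 2. In the real comparison 45.7% of genes passed, so the shares found in the simulation need not hold there. With changes of 2 on the log2 scale, 105 of 197 changed genes were called and 16% of calls were false. With changes of 3, 163 of 198 were called and 17.7% of calls were false. With changes of 1, 0 of 196 were called, and 82.5% of unchanged and 24.5% of changed genes counted as within 2-fold. Promoters came from RefSeq (GRCm38.p6) and biotypes from GENCODE M21, matched by symbol or identifier, and no coordinate of the deposited values was used.

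The members and lists were chosen with earlier results of these data known. Genes named were the 10 with the highest adult mean in each class, in each list those with the highest adult means (5), the lowest and the highest log2 differences (2 each) and every absent or adult-level member, and genes the study names and cell markers. Agr2, Aqp8, Bpifa2, Igkv4-57-1, Por, Scgb2a2 and Smr3a were chosen after their values were seen. The stem cell spheres were not analysed here. Some genes of the lists are counted but not reported by name here.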

Additional observations from a re-analysis of the deposited data

How the results depend on the processing

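On the deposited scale, 8406 genes were called, 4615 higher and 3791 lower at E19.5, with 430 absent, 1472 below, 1340 at and 1089 above the adult level. Scaled to own reads, 1539 were lower, 276 absent, 524 below, 556 at and 1780 above it. Alternatives chosen after seeing the data were own reads without adult replicate 3, with 10398 higher, 1843 lower, 517 below, 781 at and 1776 above, and own reads relative to the median of all genes, with 823 at the adult level, of which 485 were among the 1340. Absent genes numbered 183 with a mean of at least 10 reads, 235 with limma-voom and 264 with a limit of 0.1 FPKM, and genes at the adult level 207 with a 1.5-fold interval.

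Leaving out 1 library at a time gave 5496 to 10834 calls, 3219 to 5788 higher, 2277 to 5046 lower, 358 to 522 absent, 935 to 2041 below, 708 to 1962 at and 660 to 1087 above. E19.5 replicate 2 or 3 lowered the calls to 5496 and 5563, those lower to 2277 and 2315 and those above to 660 and 666, E19.5 replicate 2 those below to 935, and E19.5 replicate 1, 2 or 3 those at the adult level to 776, 708 and 852. Of 312 genes below the adult level that also differed from E17.5, 114 to 275 passed without 1 library and 66 with all 9 libraries in the fit.

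Same-numbered libraries did not deviate together (correlations across genes of -0.066, -0.036 and -0.079 between E19.5 and adult), so the numbers give no pairing. A fit with the replicate block gave 831 genes at the adult level and 204 genes that also differed from E17.5, and B2m, Fth1, Hadha, Rps27, Sec61b and Tmsb4x no longer passed.

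For 170 named genes, 2223 of 2371 values under the alternatives kept direction and side of the threshold, 86 no longer passed and 52 newly passed. Scaled to own reads, 9 genes with a small negative difference turned to a called positive one, 0.77 for Cox6a1, 0.64 for Ephx2, 0.73 for Etfb, 0.84 for Etfdh, 0.79 for Gne, 0.85 for Ndufb3, 0.66 for Prdx6, 0.77 for Sdha and 0.83 for Sdhb. Atp5b ran from -0.38, called lower, without adult replicate 3 to 0.22 without adult replicate 1. Leaving out a library, most often an E19.5 one, ended the calls of 17 genes, among them Acta2, with adjusted p up to 0.065, and Tmsb4x, with adjusted p up to 0.078 (limma). The cause was not tested. At these depths, a gene without a read at E19.5 is known only to be under 3 reads over the 3 libraries.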

Other observations

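Gene groups outside the lists, chosen after their values were seen, are given as values only. Of 134 immunoglobulin variable segments tested, 85 were lower at E19.5, 49 did not pass and none was higher, and 125 had no read at all at E19.5. Of the 106 expressed in the adult, 80 were absent. The mean of any segment at E19.5 was at most 0.326 FPKM. The highest adult mean, 361 FPKM for Igkv4-57-1, came from adult replicate 1 alone. This segment was at 1069, 8.46 and 4.22 FPKM in the adult libraries, did not pass and could not be placed. Such segments resemble one another, so single segments are uncertain.

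Of 26 collagen genes tested, 22 were higher at E19.5, 4 were lower and none failed to pass, with a median log2 difference of 2.90. Scaled to own reads, 22 were higher and 1 lower. Of 70 ribosomal protein genes, 33 were higher, 3 lower and 34 did not pass, with a median log2 difference of 0.79, and 52 were higher scaled to own reads. All 9 tested markers of proliferating cells were higher at E19.5. Among all genes, 25.1% were higher and 20.6% lower on the deposited scale, and 40.1% and 9.27% scaled to own reads.

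Genes above 20 FPKM in 1 adult library and at most 5% of that in the others numbered 27 in adult replicate 3, 9 in replicate 2 and 8 in replicate 1. In replicate 3 they included the milk protein genes Wap (11684 FPKM) and Csn1s2a (5722 FPKM). In replicate 2 they included the salivary products Bpifa2 (597 FPKM) and Smr3a (275 FPKM). In replicate 1, 7 of the 8 were immunoglobulin segments.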
